A study of Mus musculus with 5 samples.

Results

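The acute phase genes Saa1, Saa2, Saa3, Lcn2, Ptx3, Hp, Cp, Lbp, Steap4 and Serpina3n were examined on 5 one-colour arrays of cultured mouse cells. Every probe set whose only gene symbol in the platform annotation was one of these 10 genes was taken, which gave 21 of the 45101 probe sets. The arrays were titled TNF-LTBR (2 arrays) and control (3 arrays), all at 24 h, and all cells were labelled as aortic endothelial cells of C57BL/6J background, grown in serum-containing medium with heparin and endothelial growth supplement. TNF acts through the receptor TNFR1 and LTBR is the lymphotoxin beta receptor, both of which signal through NF-kB. The treatment text was the same for all 5 samples and named PBS alone, so membership of the TNF-LTBR group rests on the titles. The sources used here do not give the agonists or doses. Separate cultures or animals are not stated for the arrays of either group, so a p-value here measures the spread between arrays that may be technical replicates.

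Acute phase proteins are plasma and secreted proteins whose genes respond to inflammation. In the liver the main signals are IL-6, acting through STAT3, and IL-1 and TNF, acting through NF-kB, with C/EBP factors acting on many of the promoters. Several of these genes are also transcribed outside the liver: in the mouse, Saa3 is the serum amyloid A gene best known from macrophages, adipose tissue and other extrahepatic cells, and Lcn2 and Ptx3 are made by many stromal and myeloid cells. Vessel wall cells are among the known sources of Ptx3.

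The 250 bases before the transcription start are shown for Saa3, Lcn2 and Ptx3. All 3 genes had their highest values on the same 2 arrays, 1 of each group, as described below. Hp, Serpina3n and Lbp shared these arrays. Promoters were not matched for Hp and Lbp, and that of Serpina3n is not printed. The sequences are those of RefSeq on GRCm38.p6, at chr7:46715677-46715926 on the minus strand for Saa3, chr2:32387740-32387989 on the minus strand for Lcn2 and chr3:66219637-66219886 on the plus strand for Ptx3. Capitals mark letter matches on either strand to the outer letters of NF-kB sites (GGG, any 5 letters, CC), to TTNNGNAA, which C/EBP sites often match, or to TTCNNNGAA, which many STAT sites match.
Saa3: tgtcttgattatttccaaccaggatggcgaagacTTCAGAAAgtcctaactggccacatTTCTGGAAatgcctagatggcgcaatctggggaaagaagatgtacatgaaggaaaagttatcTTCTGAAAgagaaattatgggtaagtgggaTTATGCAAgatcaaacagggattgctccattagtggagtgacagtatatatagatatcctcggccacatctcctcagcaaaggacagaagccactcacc
Lcn2: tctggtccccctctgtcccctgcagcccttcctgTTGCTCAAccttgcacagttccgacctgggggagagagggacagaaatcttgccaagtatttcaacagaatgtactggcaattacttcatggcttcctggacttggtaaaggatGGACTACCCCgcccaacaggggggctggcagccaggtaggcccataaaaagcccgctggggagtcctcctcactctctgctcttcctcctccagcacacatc
Ptx3: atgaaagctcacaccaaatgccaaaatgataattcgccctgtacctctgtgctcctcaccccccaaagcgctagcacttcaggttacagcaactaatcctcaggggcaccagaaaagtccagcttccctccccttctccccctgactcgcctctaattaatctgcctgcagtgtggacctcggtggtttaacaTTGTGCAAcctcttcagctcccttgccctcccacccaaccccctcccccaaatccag

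Promoter windows of 300 bases, from 250 before to 50 after the start, were matched for 8 of the 10 genes. The Saa3 window held 4 matches to TTNNGNAA, at 216 to 209, 191 to 184, 129 to 122 and 99 to 92 bases before the start. At least 1 such match was present in 40.7% of the 32851 promoters of the same length, and at least 4 in 0.852%, a count chosen after the Saa3 window had been read. The Lcn2 window held 1 match to TTNNGNAA, 216 to 209 bases before the start, and 1 match to the NF-kB letters, 102 to 93 bases before it. The Ptx3 window held 1 match to TTNNGNAA, 57 to 50 bases before the start, and overlapping matches to the NF-kB letters at the start itself, of which 1 begins on the last base printed; these are not in capitals. The NF-kB letters occurred in 50.8% of all promoters and were not in the Saa3 window. TTCNNNGAA occurred in 8.3% of all promoters and, among the 8 genes, only in the Steap4 window. The Serpina3n window held matches to the NF-kB letters and to TTNNGNAA. A match to TTNNGNAA was present for all 8 genes, among them Cp, which was low on the arrays where Saa3, Lcn2 and Ptx3 were high. Whether the matches bear on the values was not tested.

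Values are intensities on a linear scale, with one common trimmed mean on every array as deposited. Array medians were 120.7 and 109.9 on TNF-LTBR arrays 1 and 2 and 110.0, 113.3 and 115.2 on control arrays 1 to 3. The arrays did not group by title. Over the 27044 other probe sets among the 60% brightest, the root mean square difference in log2(intensity + 16) was smallest between TNF-LTBR array 2 and control array 3 (0.40) and between TNF-LTBR array 1 and control array 2 (0.42), and it was 0.72 between the TNF-LTBR arrays. Single genes could still differ by title without overlap: Nfkb2, which encodes a subunit of the non-canonical NF-kB pathway, had intensities of 1154.8 and 1201.9 on the TNF-LTBR arrays and 417.7, 321.6 and 251.5 on the control arrays (limma, unadjusted p 0.00027, adjusted p 0.9999). Of 12 markers of the labelled endothelial cell type, 10 were among the 60% brightest probe sets, but Vwf lay between 2.3 and 7.2 and Tie1 between 2.0 and 45.5 on the 5 arrays. That filter is mild, as its bound, a mean of 68.9, lies below every array median. Of the 10, Eng lay between 1550.2 and 1858.3, but Pecam1 between 52.6 and 198.9, Cdh5 between 28.7 and 235.6 and Cldn5 between 17.1 and 172.9. All 10 fibroblast and pericyte markers were among the brightest, with Col1a2 between 17596.6 and 20691.4. Contributions of fewer cells of a type and of less RNA per cell cannot be told apart in such cultures.

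By group mean, 17 of the 21 acute phase probe sets were higher in TNF-LTBR than in control, against 51.9% of all probe sets, and 4 were lower. None passed the test: the smallest limma adjusted p over all 45101 probe sets was 0.9999, 0 probe sets were called in the series (0% of all), and no acute phase probe set had an unadjusted p under 0.05 (smallest 0.0862, for Saa3), against 3.04% of all probe sets. The median difference over the 21 was 0.35 on the log2(intensity + 16) scale, and over all probe sets it was 0.01. A mean difference of at least 1 in favour of TNF-LTBR was found for 5 of the 21, those of Saa3, Lcn2, Serpina3n, Hp and the dimmer Steap4 probe set, against 1.12% of all probe sets, and 0 of the 21 were lower by as much, against 1.03%. The groups did not overlap for 1 of the 21, a dim Saa2 probe set, against 8.8% of all probe sets with both TNF-LTBR values above every control value. The controls themselves were far apart: 8 of the 21 spanned at least 2 log2 units over the 3 control arrays, against 3.07% of all probe sets. The genes were chosen with earlier results of these data known, so counts of the 21, here and below, are descriptions and not tests. The 21 are also not independent of each other, as 8 of them are probe sets of Cp.

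**Figure D1:**
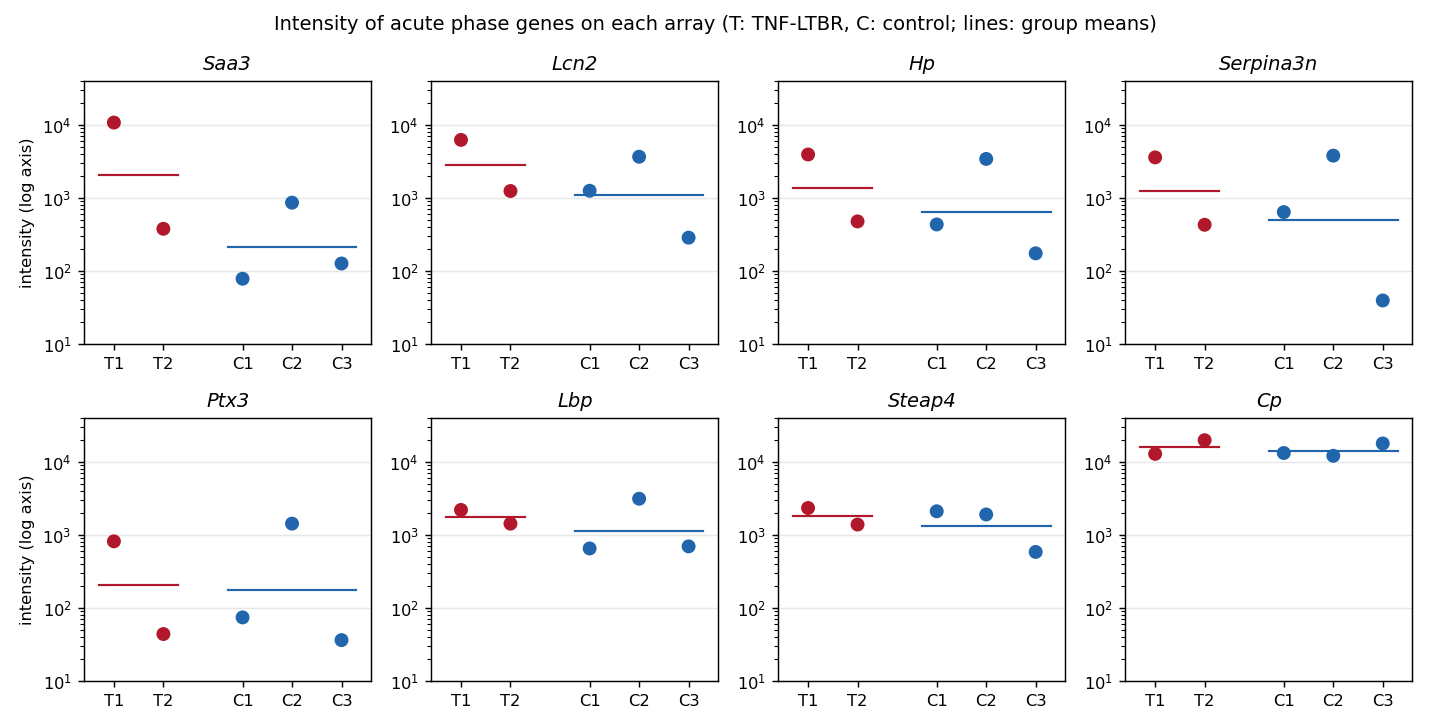
Intensity (log axis) of the brightest probe set of 8 acute phase genes on TNF-LTBR arrays T1 and T2 (red) and control arrays C1 to C3 (blue); horizontal lines are group means taken on the log2(intensity + 16) scale. Saa3 reaches 10800.9 on T1 and lies between 78.7 and 866.3 on the other arrays, and Lcn2, Hp, Serpina3n, Ptx3 and Lbp are highest on T1 and C2.

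**Figure D2:**
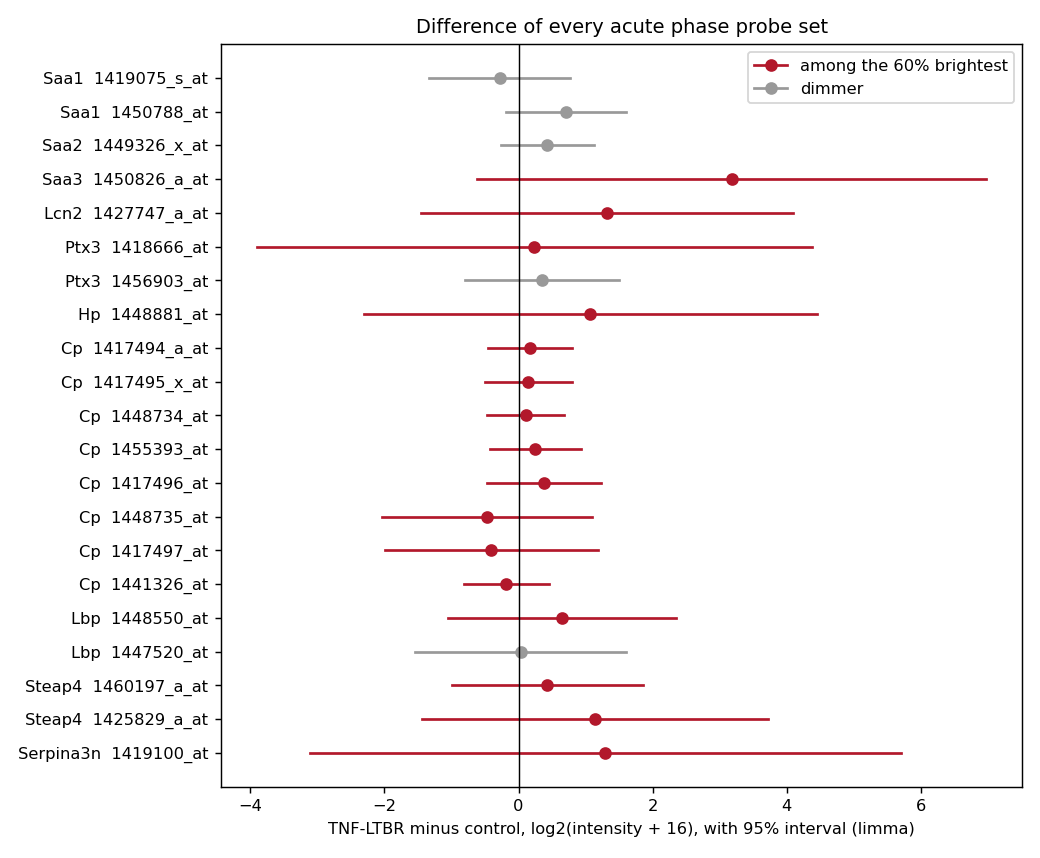
TNF-LTBR minus control on the log2(intensity + 16) scale for all 21 acute phase probe sets, with the 95% interval from limma (2 TNF-LTBR and 3 control arrays); red marks probe sets among the 60% brightest. Every interval includes 0, and that of Saa3 runs from -0.61 to 6.97.

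Saa3 showed the largest difference of these genes and the largest gap between the TNF-LTBR arrays. Its intensity was 10800.9 and 380.0 on TNF-LTBR arrays 1 and 2, against 78.7, 866.3 and 127.3 on control arrays 1 to 3. TNF-LTBR array 1 lay above every control, while TNF-LTBR array 2 lay above control arrays 1 and 3 and below control array 2, so the groups overlapped. On the log2(intensity + 16) scale the means were 11.02 ± 3.37 in TNF-LTBR and 7.84 ± 1.71 in control (SD, n = 2 and 3). The difference of 3.18 (SE 1.55, 95% interval -0.61 to 6.97) was the fourth highest of all 45101 probe sets, with an unadjusted limma p of 0.0862. It was 0.79 without TNF-LTBR array 1, 5.56 without TNF-LTBR array 2 and 4.15 without control array 2.

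Saa1 and Saa2, the serum amyloid A genes best known from liver, lie near Saa3 on chromosome 7 and were dim on every array. The 2 probe sets annotated as Saa1 had intensities of 9.6 and 26.9 in TNF-LTBR against 28.7, 40.7 and 9.8 in control, and of 34.1 and 8.1 in TNF-LTBR against 10.4, 2.5 and 3.9 in control. They therefore differed in opposite directions, by -0.28 and 0.70. The accession behind the first belongs to Saa2 in RefSeq, and its suffix marks sequence shared between transcripts, so its gene is uncertain. The Saa2 probe set had 44.9 and 42.0 in TNF-LTBR and 22.9, 25.9 and 36.7 in control, a difference of 0.43 (95% interval -0.26 to 1.12). It was the 1 acute phase probe set without overlap, at intensities below the mean of 68.9 that bounds the 60% brightest. It rests on the same Saa2 sequence as the first probe set annotated as Saa1, yet that probe set differed the other way, by -0.28. The suffix of the Saa2 probe set marks probes that may match other sequences, so its gene is uncertain too.

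Lcn2 encodes a lipocalin that binds bacterial siderophores and so withholds iron. Its intensity was 6257.3 and 1249.9 on the TNF-LTBR arrays and 1259.8, 3681.7 and 287.3 on the control arrays. The groups overlapped: TNF-LTBR array 1 was above all controls, and TNF-LTBR array 2 was level with control array 1 and below control array 2. The difference was 1.32 (SE 1.14, 95% interval -1.45 to 4.10). It was 0.17 without TNF-LTBR array 1, 2.48 without TNF-LTBR array 2 and 0.38 without control array 3.

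Hp encodes haptoglobin, which binds free haemoglobin. Its intensity was 3949.9 and 479.6 on the TNF-LTBR arrays and 435.7, 3435.1 and 175.3 on the control arrays. TNF-LTBR array 1 and control array 2 were high and close to each other, and the other 3 arrays were lower. The mean difference was 1.07 (SE 1.38, 95% interval -2.31 to 4.45). It turned to -0.43 without TNF-LTBR array 1.

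Serpina3n, a serine protease inhibitor related to antichymotrypsin, had the same 2 high arrays. Its intensity was 3605.8 and 431.2 in TNF-LTBR and 643.4, 3808.5 and 39.7 in control. Control arrays 2 and 3 differed 95.9-fold. The mean difference of 1.29 (SE 1.80, 95% interval -3.11 to 5.69) turned to -0.32 without control array 3 and -0.22 without TNF-LTBR array 1.

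Ptx3 and Lbp encode soluble proteins of innate recognition: the long pentraxin PTX3 binds microbes and complement C1q, and LBP passes lipopolysaccharide to CD14. The brighter Ptx3 probe set had intensities of 813.4 and 43.8 in TNF-LTBR and 74.0, 1421.3 and 36.2 in control. Control array 2 was the highest and TNF-LTBR array 1 came next, and the other 3 arrays lay at 74.0 or below. The mean difference was 0.24 with an interval of -3.90 to 4.37. Its sign depended on the array set, at -1.66 without TNF-LTBR array 1 and 2.13 without TNF-LTBR array 2. The second Ptx3 probe set was dim, at 53.9 and 38.5 in TNF-LTBR and 34.3, 61.9 and 13.0 in control.

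The brighter Lbp probe set had intensities of 2189.4 and 1421.7 in TNF-LTBR and 650.0, 3114.9 and 694.1 in control. Both TNF-LTBR arrays exceeded control arrays 1 and 3 and neither reached control array 2. The difference was 0.64 (SE 0.70, 95% interval -1.06 to 2.34), and it was 1.37 without control array 2 and 0.26 without control array 1. The second Lbp probe set lay at 70.9 or below on every array, with a difference of 0.03.

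Steap4 encodes a metalloreductase that reduces iron and copper at the cell membrane. Its brighter probe set had intensities of 2326.2 and 1381.3 in TNF-LTBR and 2097.6, 1897.0 and 582.7 in control, and its other probe set had 600.9 and 491.4 in TNF-LTBR and 590.6, 501.5 and 36.3 in control. Control array 3 was the low one on both, and the remaining 4 arrays lay at 1381.3 to 2326.2 on the brighter and at 491.4 to 600.9 on the other. The differences were 0.43 and 1.14, and without control array 3 they were -0.15 and -0.0021.

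Cp encodes ceruloplasmin, the copper-carrying ferroxidase of plasma, and was covered by 8 probe sets. The brightest had intensities of 12802.7 and 19715.5 in TNF-LTBR and 13157.8, 12049.1 and 17793.1 in control, a difference of 0.17 (SE 0.25, 95% interval -0.45 to 0.79). In contrast to Lcn2, Hp and Ptx3, Cp was lower on TNF-LTBR array 1 and control array 2 than on the other arrays, which held for 7 of its 8 probe sets. The size of that gap depended on the probe set. The 5 brightest spanned 1.55-fold to 2.44-fold over all 5 arrays, with differences of 0.11 to 0.38. A pair of others spanned 3.79-fold and 3.99-fold: one had 1179.8 and 3570.2 in TNF-LTBR and 3744.8, 1399.6 and 4465.6 in control, and the other 359.6 and 1110.7 in TNF-LTBR and 1019.9, 409.8 and 1434.2 in control. Their mean differences were negative, at -0.48 and -0.41, so probe sets of the gene disagreed in sign. The dimmest differed by -0.18. All 8 overlapped between the groups.

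**Figure D3:**
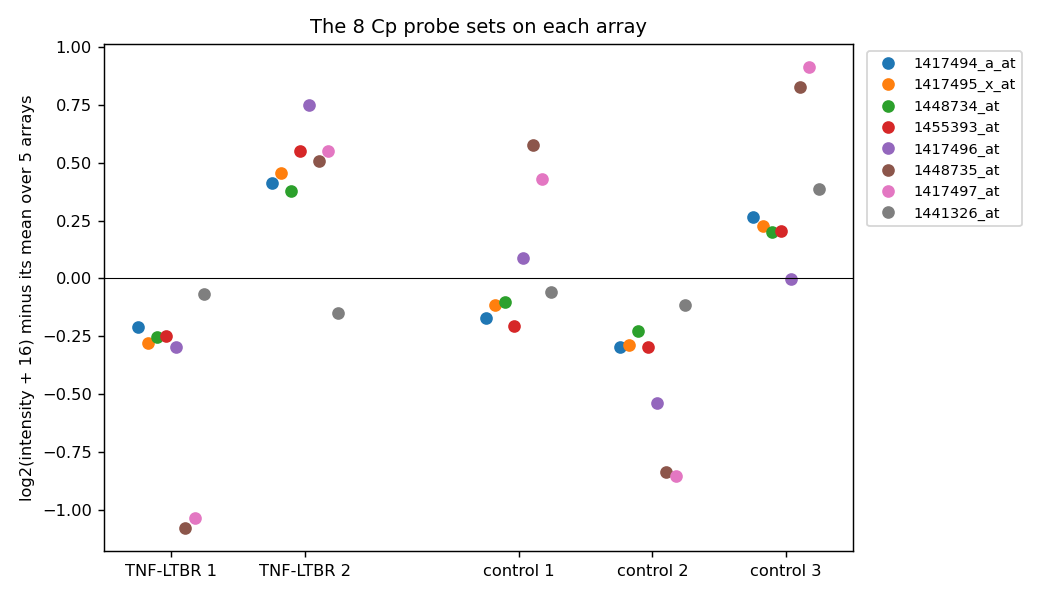
The 8 Cp probe sets on each array, as log2(intensity + 16) minus the probe set's mean over the 5 arrays. All but the dimmest probe set (grey) are lowest on TNF-LTBR array 1 and control array 2, and those drawn in brown and pink, which span 3.79-fold and 3.99-fold in intensity, lie furthest below their means there.

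Among the 16 acute phase probe sets in the 60% brightest, TNF-LTBR array 1 and control array 2 were the 2 highest arrays for 6 (1 each of Saa3, Lcn2, Hp, Serpina3n, Ptx3 and Lbp), against 19% of all probe sets that bright, and the 2 lowest for 7, all of Cp, against 19.9%. Single arrays were therefore compared as well, without a test. Between TNF-LTBR array 1 and control array 2, which were close to each other over all other probe sets, Saa3 was 12.5-fold higher in intensity, a log2(intensity + 16) difference of 3.62 and the third highest of all 45101 probe sets. The same pair differed by 0.76 for Lcn2, 0.20 for Hp, -0.08 for Serpina3n, -0.51 for Lbp and -0.79 for Ptx3. A difference of at least 1 upward was found for 2 of the 21 probe sets in that pair (Saa3 and a dim Saa1 probe set), against 4.31% of all probe sets, and downward for 1, the other Saa1 probe set, against 3.8%.

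Between TNF-LTBR array 2 and control array 3, the other close pair, 7 of the 21 were higher by at least 1, against 3.27% of all, and 0 were lower by as much, against 3.6%. Serpina3n was higher by 3.01, Lcn2 by 2.06, Saa3 by 1.47, Hp by 1.37, Lbp by 1.02 and the Steap4 probe sets by 1.22 and 3.28, while Ptx3 differed by 0.20. Against control array 1, the same TNF-LTBR array was higher by at least 1 for 2 of the 21 (4.99% of all), namely Saa3 at 2.06 and Lbp at 1.11, with Lcn2 at -0.01, Hp at 0.13 and Serpina3n at -0.56. Against control array 2 it was lower by at least 1 for 7 of the 21 (6.26% of all), with Ptx3 at -4.59, and higher by as much for 3, all of Cp (4.92% of all). TNF-LTBR array 1 was higher by at least 1 than control array 1 for 6 of the 21 (6.61% of all) and than control array 3 for 11 (8.44% of all). Saa3 was higher in 5 of the 6 array pairs, and its 1 negative pair was TNF-LTBR array 2 against control array 2, at -1.16.

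**Figure D4:**
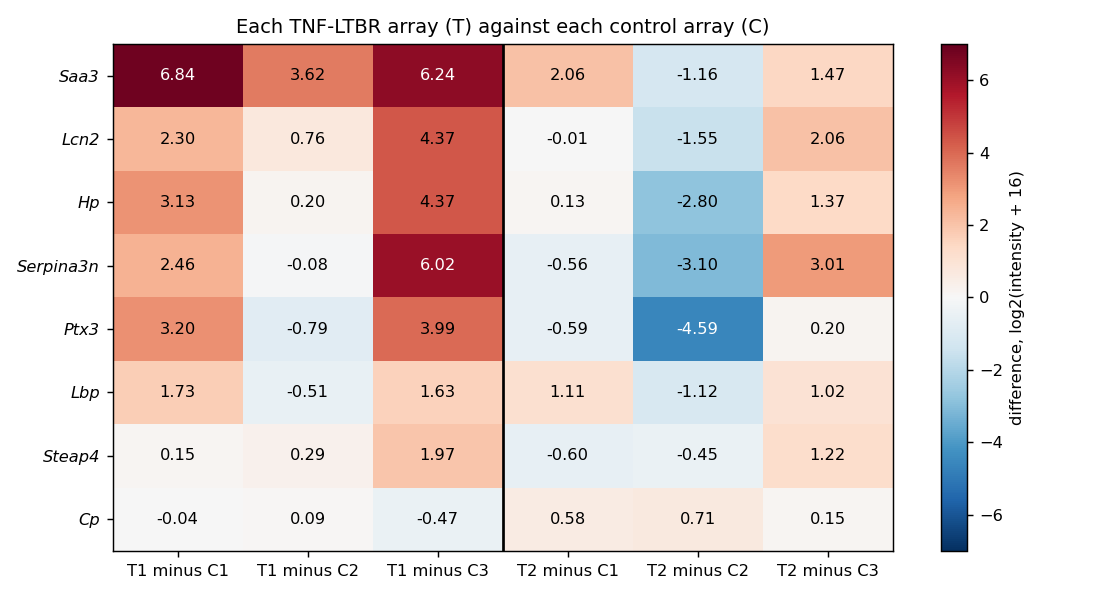
Difference in log2(intensity + 16) between each TNF-LTBR array (T) and each control array (C) for the brightest probe set of 8 acute phase genes. Saa3 is positive in 5 of 6 pairs, at 1.47 to 6.84, and T2 minus C2 is negative for 7 of the 8 genes, with Cp at 0.71.

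The cytokines, receptors and transcription factors upstream of acute phase genes did not pass the test: 0 of 19 measured genes had a limma adjusted p under 0.05 and 0 an unadjusted p under 0.05. Of the 16 among the 60% brightest, 11 were higher and 5 lower in TNF-LTBR, with a median difference of 0.06. Lif, an IL-6 family cytokine, had 451.7 and 188.7 in TNF-LTBR and 163.1, 185.1 and 69.9 in control, a difference of 1.09 without overlap (unadjusted limma p 0.0805). Il1b had 184.0 and 171.0 in TNF-LTBR and 115.7, 126.9 and 116.2 in control, and Osm had 77.3 and 67.8 in TNF-LTBR and 117.1, 85.2 and 94.4 in control. Both were also without overlap, Il1b above and Osm below the controls. Lif, Il1b and Osm were named for that reason. Over all probe sets, 8.8% lay above every control on both TNF-LTBR arrays and 6.84% below.

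Il6, the main inducer of the hepatic acute phase response, is named here after its values were seen. Its intensity was 1195.7 and 33.7 in TNF-LTBR and 39.1, 1184.6 and 33.5 in control. It was thus high and nearly equal on TNF-LTBR array 1 and control array 2, and low on the other 3. Socs3, an IL-6 feedback inhibitor also named after its values were seen, followed the same split, with 2161.4 and 836.3 in TNF-LTBR and 817.4, 2128.4 and 1110.4 in control. These were the 2 highest arrays for 19% of all probe sets among the 60% brightest. Of the 16 genes of the same list that bright, they were so also for Il6st, Il1r1, Osmr, Stat3, Cebpb, Cebpd and Nfkbiz. They were not so for Il1b, Lif, Osm, Il6ra, Jak1, Cebpa and Rela. Whether Il6 bears on the acute phase genes here was not tested.

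**Figure D5:**
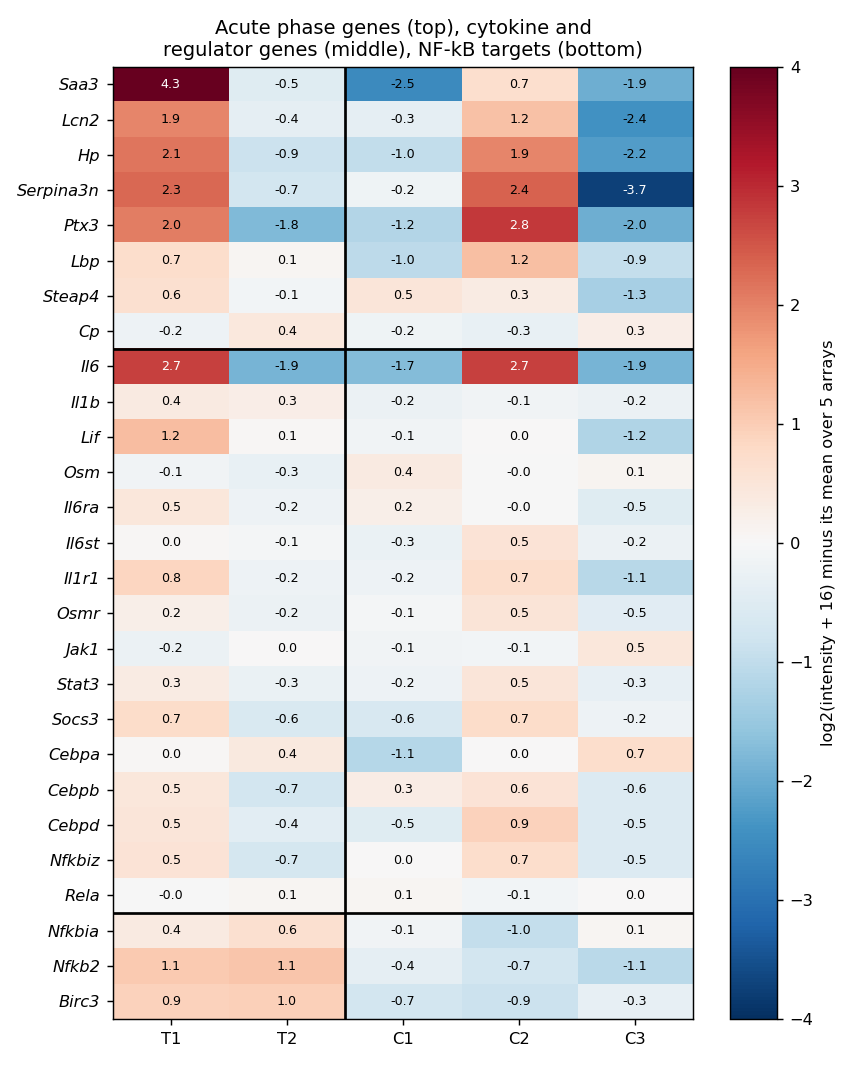
Log2(intensity + 16) minus the mean over 5 arrays for 8 acute phase genes, 16 cytokine, receptor and transcription factor genes and the genes Nfkbia, Nfkb2 and Birc3 on TNF-LTBR arrays T1 and T2 and control arrays C1 to C3. Il6 is high on T1 and C2 like Ptx3, whereas Nfkb2 and Birc3 are high on T1 and T2.

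Of 20 other acute phase and liver plasma proteins with a probe set, 7 were among the 60% brightest, 0 passed in limma and 1 had an unadjusted p under 0.05. Among the 7, 4 were higher and 3 lower, with a median difference of 0.08. Itih4, an inter-alpha-inhibitor heavy chain gene, had 32.3 and 70.7 in TNF-LTBR and 75.9, 80.2 and 120.3 in control, and Serpina10 had 202.1 and 131.5 in TNF-LTBR and 122.5, 122.9 and 130.6 in control. Of 7 measured hepatocyte markers, 3 were among the 60% brightest, with Apoa2 between 109.5 and 186.8, while Fgb lay at 4.3 or below and Alb at 87.0 or below on all 5 arrays. Of the paralogs of Serpina3n, 2 of 9 had an unambiguous probe set, and both were dim.

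Among 17 measured receptors and partners of these proteins, 15 were in the 60% brightest, 10 higher and 5 lower in TNF-LTBR, with a median difference of 0.06 and 0 past the limma threshold (1 with an unadjusted p under 0.05). Mmp9, a protease that forms a complex with LCN2, had 196.6 and 95 in TNF-LTBR and 76.6, 86.6 and 22.5 in control. Tlr2, a receptor reported to sense serum amyloid A, had 432.8 and 638.4 in TNF-LTBR and 370.7, 207.9 and 352.5 in control, and Fpr2, a formyl peptide receptor that binds serum amyloid A, had 129.8 and 129.6 in TNF-LTBR and 74.3, 74.0 and 93.7 in control. These 3 were named because their groups did not overlap, with both TNF-LTBR values above every control. That held for 8.8% of all probe sets. Cd14, the partner of LBP, had 831.6 and 797.8 in TNF-LTBR and 600.2, 1081.1 and 828.8 in control, which overlapped.

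Of 14 measured genes for iron and copper handling, all among the 60% brightest, 11 were higher and 3 lower, with a median difference of 0.09 and 0 past the limma threshold (0 with an unadjusted p under 0.05). The metal transporter genes Slc11a2, with 558.9 and 583.7 in TNF-LTBR and 450.8, 468.2 and 312.9 in control, and Slc31a1, with 728.0 and 597.2 in TNF-LTBR and 503.4, 560.0 and 433.0 in control, did not overlap. They were named for that reason, and 8.8% of all probe sets likewise lay above every control. Steap2, a relative of Steap4, had 6812.5 and 1975.7 in TNF-LTBR and 1949.1, 6571.4 and 1718.1 in control, so it was high on TNF-LTBR array 1 and control array 2, unlike Steap4.

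The profiles most like those of Saa3, Lcn2 and Ptx3 were sought among 23042 bright probe sets of other genes, by the root mean square difference of mean-centred log2(intensity + 16) values over the 5 arrays. Nearest to Lcn2 were Bcat1 (0.23), Tmem200a (0.33) and Slit2 (0.34), and nearest to Ptx3 were Cthrc1 (0.22), Lgi2 (0.36) and Ms4a4d (0.40). Slit2 had 5620.0 and 1285.1 in TNF-LTBR and 1842.8, 4100.0 and 504.2 in control, and Cthrc1 had 1054.6 and 88.4 in TNF-LTBR and 107.1, 2077.6 and 84.6 in control. No profile came as near to Saa3: its nearest were S1pr3 (1.07), the neutrophil chemokine gene Cxcl5 (1.09) and the monocyte chemokine gene Ccl7 (1.11). This measure is not scaled for the range of a gene, and Saa3 spanned 6.84 log2 units, against 4.37 for Lcn2 and 4.78 for Ptx3. Ccl7 had 7589.9 and 1905.5 in TNF-LTBR and 256.6, 2870.0 and 106.4 in control. Among the acute phase genes, the nearest profiles were those of Lcn2 and Hp (0.51) and of Ptx3 and Hp (0.59).

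Some markers of other cells were also highest on TNF-LTBR array 1 and control array 2, like Hp, Ptx3 and Serpina3n, and their part in these results was not tested. Of 8 measured macrophage markers, 5 were among the 60% brightest, and the summed intensity over all 8 was 8291.7 and 2269.8 in TNF-LTBR and 3525.9, 7085.0 and 1897.1 in control. Within this list Lyz2 had 3933.6 and 66.5 in TNF-LTBR and 1088.5, 3409.2 and 186.3 in control, and Cd53 had 2533.8 and 1659.1 in TNF-LTBR and 1110.3, 2126.1 and 1104.0 in control. Lyz2 and Cd53 made up most of the sum on every array. Cd68 and Csf1r were also highest on TNF-LTBR array 1 and control array 2, whereas Adgre1, Ptprc, Itgam and Aif1 did not follow that order. Adgre1 had 591.5 and 96.2 in TNF-LTBR and 408.6, 360.9 and 159.0 in control. Ptprc, which defines leukocytes, lay at 75.2 or below on all arrays. Of 8 measured neutrophil markers, 4 were among the 60% brightest, and the sums over all 8 were 526.9 and 495.8 in TNF-LTBR and 375.6 to 599.6 in control, with S100a9 at 7.3 or below. Fibroblast and pericyte markers did not share 1 order of arrays: Thy1 had 8871.2 and 127.9 in TNF-LTBR and 2583.1, 12215.1 and 154.6 in control, whereas Lum had 1103.8 and 12933.2 in TNF-LTBR and 1145.4, 818.0 and 12967.3 in control. The sum over all 10 fibroblast and pericyte markers was 69681.5 and 80500.9 in TNF-LTBR and 38478.3, 65418.7 and 76391.0 in control. Of 8 smooth muscle markers, 5 were among the 60% brightest, and the sums over all 8 were 6805.2 and 4036.2 in TNF-LTBR and 14633.7, 11969.5 and 4211.1 in control. The endothelial sums over all 12 were 3371.3 and 2399.7 in TNF-LTBR and 3392.7, 3873.2 and 2672.3 in control. Eng alone gave 1562.5 and 1693.5 of these in TNF-LTBR and 1550.2, 1858.3 and 1811.2 in control.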

How the data were processed

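Biotin-labelled transcripts of total RNA were hybridised, per the labels. The authors deposited linear array intensities, 1 per probe set and array, made with GCOS 1.4 per the submitters' processing notes. Neither the summary algorithm nor the scaling target is stated in the sources used here. Each array averaged 500.0 once 2% of its probe sets was trimmed at either end. The number of arrays limits the precision. Gene symbols came from the platform annotation, in which 34958 of 45101 probe sets had 1 symbol, 932 several and 9211 none listed; promoter sequences came from RefSeq (GRCm38.p6).

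Intensities were used as deposited and transformed as log2(intensity + 16), a scale that understates changes of dim genes. Every probe set was fitted, with no brightness filter, in limma 3.58.1 (R 4.3.3; lmFit and eBayes with an intensity trend, 3 residual degrees of freedom), two-sided. P-values were adjusted over all probe sets (Benjamini-Hochberg) at a threshold of 0.05. The fit code was run on simulated data with independent noise, and only the recovery of planted differences was checked. Those data lack the closeness of arrays across titles, so the check says nothing about calls here. An exact two-sided permutation test of 2 against 3 arrays that doubles the smaller tail cannot go below 0.2. The 60% brightest probe sets had a mean log2 value of at least 6.41. Other gene lists used each gene's brightest probe set. Named genes were every member, list genes without overlap (up to 4 per list), and the 3 nearest profiles of Saa3, Lcn2 and Ptx3. The 16 bright genes of the upstream list were also all named, by their order of arrays. Nfkbia, Nfkb2 and Birc3 came from a further list, of NF-kB targets, and their groups did not overlap. Il6, Socs3, Cd14, Steap2 and the marker genes were picked with their intensities in view. The members and lists were chosen with earlier results of these data known. Alternatives were pseudocounts 1 and 64, brightness filters, quantile normalization, median centring, no trend, array weights, a replicate block, and each array left out in turn.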

Additional observations from a re-analysis of the deposited data

How the results depend on the processing

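No alternative called any probe set in limma after adjustment, whether over all probe sets or among the 21 acute phase ones. Of the 21, 6 probe sets, among them those of Saa3, Lcn2, Saa2 and the brighter Lbp probe set, kept their direction under every alternative that included them, and 15 turned under at least 1. The count of acute phase probe sets above all controls was 1 with all arrays and 1 to 7 when 1 array was left out. It was 0 with the 60% brightest probe sets, and with 1 probe set per gene limited to the 60% brightest. Those filters drop the dim Saa2 probe set that made the count 1. With fewer arrays non-overlap is easier to reach for any probe set. The share over all probe sets is not given for these settings, so the larger counts are not a result about the acute phase genes. The median difference was 0.86 over the 8 genes left with 1 probe set per gene limited to the 60% brightest, against 0.35. With the brightest probe set of each of the 10 genes and no filter it was 0.54. It was 0.17 to 0.60 when 1 array was left out. Under other settings, Ptx3 was at -0.046 with array quality weights, and the dimmer Lbp probe set at -0.044 with pseudocount 64 and -0.12 with array quality weights.

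With the replicate block, control array 3 has no partner, so the fit gives the differences of the fit without that array: -0.69 and -0.020 for the Ptx3 probe sets, -0.44 for the dimmer Lbp probe set, -0.15 and -0.0021 for the Steap4 probe sets and -0.32 for Serpina3n. The titles share only numbers: deviations from the group means correlated at 0.13 for the arrays numbered 1 and at -0.69 for those numbered 2. With 2 TNF-LTBR arrays, the deviations of array 1 mirror those of array 2. The value of -0.69 therefore restates the 0.69 between TNF-LTBR array 1 and control array 2. When 1 array was left out, Saa3 ranged from 0.79 to 5.56 and Lcn2 from 0.17 to 2.48. The ranges that crossed 0 were -1.66 to 2.13 and -0.020 to 0.69 for Ptx3, -0.43 to 2.57 for Hp, -0.32 to 2.80 for Serpina3n, -0.44 to 0.63 for the dimmer Lbp probe set, -0.15 to 0.80 and -0.0021 to 1.77 for Steap4, -0.65 to 0.091 for a Saa1 probe set, and, for Cp in order of brightness, -0.14 to 0.48, -0.22 to 0.52, -0.21 to 0.42, -0.15 to 0.65, -0.14 to 0.90, -1.27 to 0.32 and -1.20 to 0.39. The cause of these changes, other than the array left out, was not tested.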
